A study of Homo sapiens with 6 samples.

Results

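Integrins and the scaffold of focal adhesions were followed as a set of 39 genes: 12 integrin alpha subunits, 7 beta subunits, and 20 talins, kindlins, filamins, actinins, tensins, kinases, adaptors and non-muscle myosins. The genes were listed by symbol. Of the 39, 38 were among the 34869 genes with a value, and 26 of those reached a mean of at least 1 FPKM (reads scaled by library size and by gene length) and were tested among 12782 genes. ITGA4 had no row under its identifier and was not analysed here. RNA came from NCI-H295R, an established human adrenocortical carcinoma line that makes adrenal steroids, in 2 groups of 3 libraries. In shTPD52 the cells were transduced with lentivirus that delivers a short hairpin RNA against TPD52, and in shCtrl with lentivirus that delivers a non-targeting hairpin, so both groups carry a vector. The labels do not give the number of hairpins, the time after transduction or whether the libraries of a group came from separate cultures, so p-values measure the spread between these libraries, which may be technical. The study's title places TPD52 in aldosterone synthesis and CAMKK2 signaling, and the comparison described here asks how adhesion genes differed between the knockdown and its control.

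Integrins are cell surface receptors made of one alpha and one beta subunit. They bind matrix proteins outside the cell: some alpha subunits read the RGD sequence of fibronectin and similar proteins, others collagens, others laminins. Inside, talin and kindlin bind the beta tail and activate the receptor, while vinculin, actinins, filamins and tensins tie it to actin. Focal adhesion kinase, paxillin and BCAR1 carry the signal onward, and non-muscle myosin II pulls on the filaments.

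TPD52 RNA was 0.630, 0.635 and 0.655 FPKM in the shTPD52 libraries, against 1.42, 1.18 and 1.29 FPKM in the shCtrl libraries, so its mean was 0.493 times the control. Its mean over all libraries was under the filter of 1 FPKM, so TPD52 itself was not among the tested genes. Reads recovered from the FPKM ran from 29544341 to 38396624 per library. Of the 10 adrenocortical markers examined, 9 were above the filter, with summed levels of 461 to 470 FPKM in shTPD52 and 408 to 431 FPKM in shCtrl. Of these 9, limma called 4 higher in shTPD52 (CYP21A2, HSD3B2, MC2R and FDX1) and 1 lower (NR0B1). Over all tested genes 5.63% were called higher and 12.7% lower. At 2 to 4 kb, the class of this list's median length (3.38 kb), those shares were 8.55% and 8.35%. All 7 endothelial markers were under 1 FPKM, as were 8 of 9 fibroblast markers, none of them at 0 in every library. Endothelial markers summed to 0.287 to 0.461 FPKM in shTPD52 and 0.304 to 0.457 FPKM in shCtrl, and fibroblast markers to 19.9 to 25.2 FPKM in shTPD52 and 23.7 to 25.3 FPKM in shCtrl. COL3A1 made up most of the fibroblast sum. The 6 epithelial markers with a row summed to 6.48 to 7.79 FPKM in shTPD52 and 4.61 to 4.99 FPKM in shCtrl, with KRT18 called higher of the 2 tested, and the part of these levels in the results was not tested.

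One library stood apart. On the first principal component, which held 61.0% of the variance, shTPD52 replicate 2 lay at 0.291, shTPD52 replicates 1 and 3 at 27.3 and 35.3, and the shCtrl libraries between -24.1 and -16.4. Results on adhesion genes are therefore given with and without shTPD52 replicate 2. That library was singled out in these same data as the knockdown library nearest the controls. Leaving it out thus favours calls, 5825 over all genes in place of 2341, and adds no separate evidence. Levels of mitochondrially encoded RNA moved with this order: they took 22.4%, 19.5% and 24.2% of reads in shTPD52 replicates 1, 2 and 3, against 17.4% to 18.4% in shCtrl, and their part in the results was not tested.

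With TPD52 knocked down, 6 of the 26 tested adhesion genes fell and none rose. They were the alpha subunits ITGA5 and ITGA8, the adaptor PXN (paxillin), the myosin heavy chain MYH9, and the actin linkers FLNA and ACTN4. In RNA from whole cultures, fewer cells that express a gene and less of its RNA per cell cannot be told apart. The falls ran from 0.26 (ACTN4) to 0.68 (ITGA5) on the log2 scale, and the other 20 genes did not pass (log2 fold changes from -0.44 to 0.090). The 6 are 23.1% of the tested members, where limma called 12.7% of all genes lower and 5.63% higher, 18.3% together. No member had a higher value at an unadjusted p under 0.05 either, in limma on FPKM or in limma-voom on recovered reads (0 of 26 in both). That count has no share of all genes at the same unadjusted p beside it. Among genes as long as the members, more were called lower, 17.8% at 6 to 10 kb and 18.6% at 10 kb and over. Fewer were called higher, 2.03% and 0.687% in the same classes, so few higher calls would be found in any such genes. The median log2 fold change of the 26 was -0.27, against -0.11 for all tested genes. ITGA5 and ITGA8 alone were also called lower when each library's trend with gene length and GC content was removed, and without shTPD52 replicate 2 the number called lower was 16.

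The alpha subunits were led by ITGA7, a laminin receptor best known from muscle. ITGA7 (ENSG00000135424, GRCh38 chromosome 12, 55684568 to 55716043, minus strand) had 69.4, 71.3 and 67.2 FPKM in shTPD52 replicates 1, 2 and 3, against 76.0, 68.7 and 78.9 FPKM in shCtrl replicates 1, 2 and 3. The groups overlapped, and its log2 fold change (-0.10, SE 0.079; limma adjusted p = 0.36) did not pass. Next in the shCtrl libraries came ITGA1, a collagen receptor, at 14.6 ± 2.49 FPKM in shTPD52 and 14.0 ± 0.727 FPKM in shCtrl (SD, n = 3 each). ITGA5, ITGA9, ITGA8 and ITGAV followed, and ITGA3, a laminin receptor, and ITGA2, a collagen receptor, lay just above the filter. In shCtrl, ITGA5 at 11.8 ± 0.496 FPKM and ITGA9 at 10.1 ± 0.242 FPKM were further apart than their spread, whereas ITGA3 at 1.595 ± 0.137 and ITGA2 at 1.42 ± 0.174 FPKM were not (SD, n = 3).

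**Figure D1:**
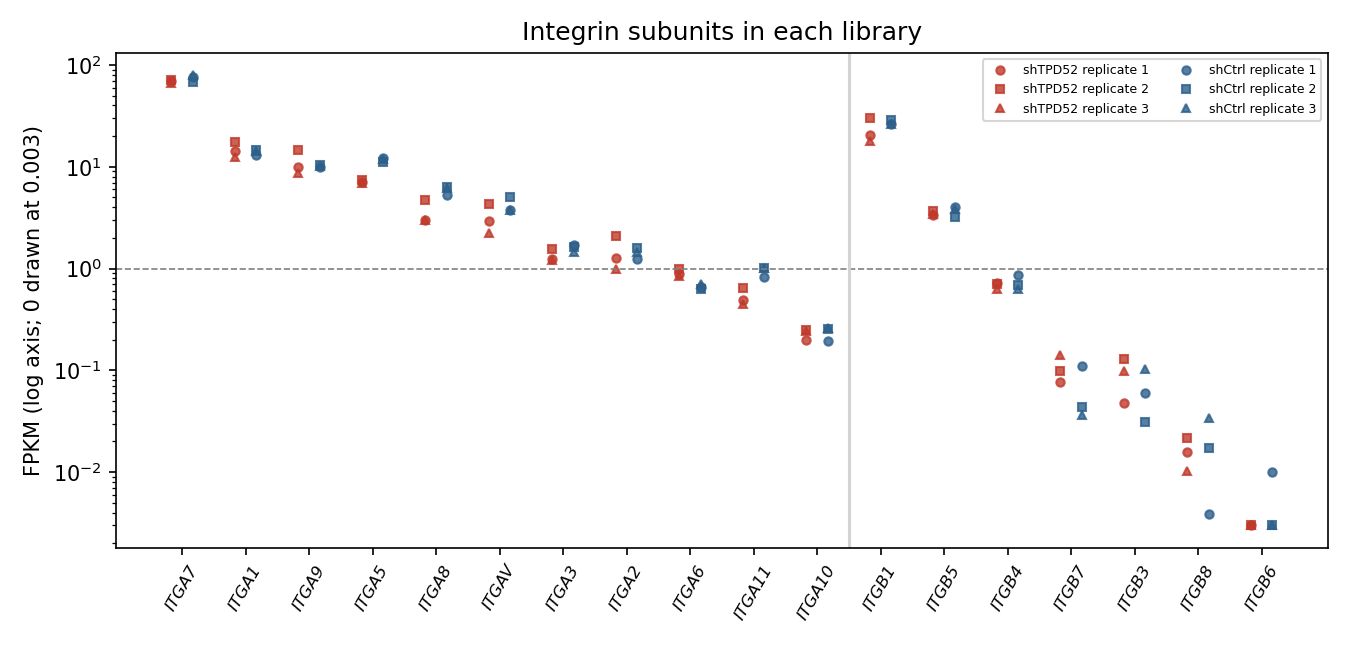
FPKM of the 11 alpha and 7 beta subunits with a row, on a log axis, in each shTPD52 and shCtrl library (symbols by replicate number; values of 0 are drawn at 0.003, and the dashed line marks the filter of 1 FPKM). ITGA7 and ITGB1 lead, ITGA5 and ITGA8 are lower in every shTPD52 library, and 4 beta subunits lie at or under about 0.14 FPKM.

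Of the 3 listed alpha subunits that bind RGD-containing ligands, 2 fell, where 12.7% of all genes and 17.8% of those of 6 to 10 kb were called lower. ITGA5 (ENSG00000161638, GRCh38 chromosome 12, 54395261 to 54419460, minus strand), the alpha chain of the classical fibronectin receptor, had 7.13, 7.46 and 6.91 FPKM in shTPD52 replicates 1, 2 and 3, against 12.2, 11.2 and 11.9 FPKM in shCtrl replicates 1, 2 and 3. Every shTPD52 library was below every shCtrl library, and shTPD52 replicate 2 lay with the other knockdown libraries. ITGA5 fell by 0.68 (log2; SE 0.082, limma adjusted p = 0.00639), to 0.609 times the control mean, on 1555 to 2010 reads per shTPD52 library and 2538 to 3234 per shCtrl library. The call held in 16 of 17 alternatives. The log2 fold change was -0.42 with length and GC trends removed (limma adjusted p = 0.0100), and the call ended without shCtrl replicate 3 (limma adjusted p = 0.0561).

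ITGA8 (ENSG00000077943, GRCh38 chromosome 10, 15513949 to 15720125, minus strand), whose ligands include nephronectin, had 2.99, 4.73 and 2.996 FPKM in shTPD52 replicates 1, 2 and 3. In shCtrl replicates 1, 2 and 3 it had 5.28, 6.27 and 6.14 FPKM. The groups did not overlap, although shTPD52 replicate 2 came closer to the controls than its 2 companions. ITGA8 fell by 0.68 (SE 0.17, limma adjusted p = 0.0344), with -0.50 when length and GC trends were removed (limma adjusted p = 0.0215). It lost the call when any 1 of the 5 libraries besides shTPD52 replicate 2 was left out (limma adjusted p from 0.0778 to 0.125) and with no filter (limma adjusted p = 0.117). Both genes kept their call with median-ratio scaling, at -0.56 for ITGA5 (limma adjusted p = 0.0105) and -0.57 for ITGA8 (limma adjusted p = 0.0388).

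ITGAV, which pairs with several beta subunits, had 2.96, 4.33 and 2.23 FPKM in shTPD52 replicates 1, 2 and 3, against 3.80, 5.04 and 3.75 FPKM in shCtrl replicates 1, 2 and 3. Replicate 2 of shTPD52 lay inside the control range, and the log2 fold change (-0.38, SE 0.21; limma adjusted p = 0.217) did not pass. As a share of the summed FPKM of the listed alpha subunits, the 3 RGD-binding chains made up 11.8%, 13.2% and 11.7% in shTPD52 replicates 1, 2 and 3, against 17.04%, 18.6% and 16.8% in shCtrl. The collagen-binding chains took 13.6% to 16.2% in shTPD52 and 12.3% to 14.4% in shCtrl. For the laminin-binding chains the share was 58.9% to 66.5% in shTPD52 and 58.5% to 62.7% in shCtrl, so those 2 classes overlapped between the groups. A share compares genes within a library and does not depend on how libraries are scaled to each other. A trend with gene length can still enter it: the RGD-binding chains have lengths of 7383, 7320 and 8220 bp, and ITGA7 6379 bp. Shares with that trend removed were not computed. The RGD share holds ITGA5 and ITGA8, called lower in the same libraries, so its fall adds no separate evidence.

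Promoter sequence is shown for the pair of subunits that fell, and for MYH9 and FLNA from among the other genes that fell. It covers the 250 bases before the RefSeq start (GRCh38.p14, 5′ to 3′ along the gene; chr12:54419267-54419516, chr10:15719923-15720172, chr22:36387968-36388217 and chrX:154374635-154374884, all minus strand). The windows of ACTN4 and PXN, which also fell, are not shown. Capitals mark matches on either strand to 3 motifs: the CArG box bound by SRF, GGAATG of TEAD factors, and TGANTCA. The last allows any middle base and so is broader than the AP-1 site, TGACTCA or TGAGTCA. These motifs do not overlap in the 4 windows.
ITGA5: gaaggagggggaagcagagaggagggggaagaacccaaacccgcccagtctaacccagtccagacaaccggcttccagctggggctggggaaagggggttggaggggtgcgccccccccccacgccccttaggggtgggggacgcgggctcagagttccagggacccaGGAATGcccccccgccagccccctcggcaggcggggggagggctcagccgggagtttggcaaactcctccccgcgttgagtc
ITGA8: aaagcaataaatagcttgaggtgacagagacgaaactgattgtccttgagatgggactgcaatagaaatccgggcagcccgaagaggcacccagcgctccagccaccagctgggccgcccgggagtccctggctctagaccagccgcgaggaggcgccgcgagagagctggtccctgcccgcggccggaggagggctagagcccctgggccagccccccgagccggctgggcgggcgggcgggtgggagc
MYH9: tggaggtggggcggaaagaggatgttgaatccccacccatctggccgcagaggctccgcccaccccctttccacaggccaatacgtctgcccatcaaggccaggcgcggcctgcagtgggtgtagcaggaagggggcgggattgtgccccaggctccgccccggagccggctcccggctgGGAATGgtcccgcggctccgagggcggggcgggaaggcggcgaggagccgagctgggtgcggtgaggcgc
FLNA: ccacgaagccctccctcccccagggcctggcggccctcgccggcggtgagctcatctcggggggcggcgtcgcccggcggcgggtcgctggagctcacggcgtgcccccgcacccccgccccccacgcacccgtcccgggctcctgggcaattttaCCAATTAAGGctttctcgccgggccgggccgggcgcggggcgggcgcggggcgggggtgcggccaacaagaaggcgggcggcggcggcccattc

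ITGA5 and MYH9 each held 1 match to GGAATG and FLNA 1 to the CArG box, which began 94 bases before the start, while ITGA8 had no match to these 3 motifs. Of the genes that fell and are not shown, a window of PXN held 1 match to GGAATG and a window of ACTN4 1 to TGANTCA. The ACTN4 match reads TGAATCA, which is not the narrower AP-1 site. RefSeq windows were matched for 22 of the 26 tested members, 43 windows in all, since a gene can have several starts; ITGA3, ITGA7, ITGA9 and PTK2 were not matched. GGAATG was in 9 of the 43, against 11.9% of 35116 windows of the same length, and the CArG box in 2 of the 43 (FLNA and ACTN1), against 1.16%. TGANTCA was also in 2 (ACTN4 and BCAR1), against 6.57%. A match describes the letters of a window and says nothing of whether a factor binds there.

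The collagen-binding ITGA1 and ITGA2 did not pass. ITGA1 had 14.2, 17.3 and 12.4 FPKM in shTPD52 replicates 1, 2 and 3, against 13.2, 14.6 and 14.3 FPKM in shCtrl. Its knockdown libraries lay on both sides of the controls, with a log2 change of 0.050 (SE 0.12, limma adjusted p = 0.79) whose sign turned on rescaling to FPKM outside mitochondrial genes (-0.011). Relative to genes of similar length and GC content it was called higher, at 0.30 (SE 0.064, limma adjusted p = 0.0228). ITGA1 has a gene length of 18.5 kb, the longest among the tested members. ITGA2 had 1.26, 2.11 and 0.993 FPKM in shTPD52 and 1.23, 1.58 and 1.45 FPKM in shCtrl, a log2 change of -0.011 (limma adjusted p = 0.975) with no stable sign, 0.076 with median-ratio scaling. ITGA9, whose ligands include tenascin-C, had 11.1 ± 3.20 FPKM in shTPD52 and 10.1 ± 0.242 FPKM in shCtrl (SD, n = 3 each), where 14.7 FPKM in shTPD52 replicate 2 exceeded every control. ITGA3 had a log2 change of -0.19 (limma adjusted p = 0.33), and 0.14 with length and GC trends removed (limma adjusted p = 0.399).

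Only 2 beta subunits were above the filter, and neither passed. ITGB1 (ENSG00000150093, GRCh38 chromosome 10, 32900319 to 33005792, minus strand), the shared partner of most of these alpha chains, had 20.3, 29.98 and 17.9 FPKM in shTPD52 replicates 1, 2 and 3, against 26.3, 28.9 and 26.2 FPKM in shCtrl. Replicates 1 and 3 of the knockdown were below every control, and replicate 2 was above every control. Its log2 fold change was -0.28 (SE 0.17, limma adjusted p = 0.256), -0.50 without shTPD52 replicate 2 (limma adjusted p = 0.0042) and -0.031 with length and GC trends removed (limma adjusted p = 0.783). ITGB5, a partner of ITGAV, had 3.50 ± 0.191 FPKM in shTPD52 and 3.69 ± 0.412 FPKM in shCtrl (SD, n = 3 each), and a log2 change of -0.063 (limma adjusted p = 0.703) that was 0.046 with median-ratio scaling.

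The level of ITGB1 depends on the gene length the authors divided by. Whole reads came out at a length of 14561 bp, where the union of its exons in GENCODE release 29 is 6011 bp. At that shorter length its means would be 55.1 FPKM in shTPD52 and 65.8 FPKM in shCtrl, which changes its level beside other genes and leaves the fold change from deposited FPKM as it is. The corrected value of ITGB1 and its place among genes of 10 kb and over rest on the longer length, and the correction at the shorter length was not run. ACTN1 is the other tested member with a clear gap, at 14320 bp against 10626 bp.

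Integrin activators are represented by TLN1 (talin-1) and FERMT2 (kindlin-2). TLN1 had 38.0, 48.9 and 36.9 FPKM in shTPD52 replicates 1, 2 and 3, against 51.1, 52.7 and 57.0 FPKM in shCtrl. The groups did not overlap, but the log2 fold change (-0.38, SE 0.12; limma adjusted p = 0.0564) did not pass. It was called lower in 4 of 17 alternatives, among them the exclusion of shTPD52 replicate 2 (-0.51, limma adjusted p = 0.00232), and was -0.069 with length and GC trends removed (limma adjusted p = 0.531). FERMT2 had 10.7, 13.9 and 9.76 FPKM in shTPD52 and 11.2, 12.8 and 11.3 FPKM in shCtrl, a log2 change of -0.056 (limma adjusted p = 0.78) with 0.062 under median-ratio scaling. TLN2, the second talin, stood at 0.0228 ± 0.0156 FPKM in shTPD52 and 0.0189 ± 0.0161 FPKM in shCtrl (SD, n = 3 each), on 2 to 24 reads per library.

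Of 8 tested actin linkers 2 fell, where 12.7% of all genes were called lower. By length that share was 17.8% at 6 to 10 kb and 18.6% at 10 kb and over. FLNA (ENSG00000196924, GRCh38 chromosome X, 154348524 to 154374638, minus strand) encodes filamin A, which crosslinks actin and binds beta tails. It had 126, 157 and 119 FPKM in shTPD52 replicates 1, 2 and 3, against 174, 187 and 193 FPKM in shCtrl, on 40271 to 77481 reads per library. Every knockdown library was below every control. FLNA fell by 0.47 (SE 0.11, limma adjusted p = 0.0301), but with length and GC trends removed the value was -0.11 (limma adjusted p = 0.367).

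ACTN4 (ENSG00000130402, GRCh38 chromosome 19, 38647649 to 38731583, plus strand), an actinin of non-muscle cells, had 123, 126 and 118 FPKM in shTPD52 replicates 1, 2 and 3, against 146, 146 and 147 FPKM in shCtrl. The controls were nearly identical and the knockdown libraries all lower. ACTN4 fell by 0.26 (SE 0.068, limma adjusted p = 0.0385). That was -0.13 with median-ratio scaling (limma adjusted p = 0.232) and -0.028 with length and GC trends removed (limma adjusted p = 0.732), neither of them a call. Of its exon bases, 14.2% lie in exons of the opposite-strand gene CAPN12, and reads there cannot be assigned without strand.

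The remaining actin linkers did not pass. VCL (vinculin) had 11.7, 17.03 and 10.7 FPKM in shTPD52 replicates 1, 2 and 3, against 15.1, 16.5 and 15.9 FPKM in shCtrl, so replicate 2 of the knockdown exceeded the controls and its companions were below them. TNS3 and TNS1, tensins that bind beta tails and actin, were at -0.44 and -0.38 log2 (limma adjusted p = 0.0785 and 0.115), which were -0.61 and -0.56 without shTPD52 replicate 2 (limma adjusted p = 0.0030 and 0.00474). With length and GC trends removed TNS3 was at -0.11 and TNS1 at 0.0086. ACTN1 (log2 fold change -0.16), TNS2 (-0.074) and ZYX (-0.039), the last encoding the LIM protein zyxin, differed by less than their spread, and the signs of TNS2 and ZYX turned with median-ratio scaling (0.032 and 0.081) while that of ACTN1 turned with the length and GC correction (0.20).

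Among kinases and adaptors 1 of 4 tested genes fell, where 12.7% of all genes and 17.8% of those of 6 to 10 kb were called lower. PXN (ENSG00000089159, GRCh38 chromosome 12, 120210439 to 120265771, minus strand) encodes paxillin, a docking protein that recruits focal adhesion kinase. It had 2.07, 3.16 and 1.78 FPKM in shTPD52 replicates 1, 2 and 3, against 3.59, 3.90 and 4.28 FPKM in shCtrl. The groups were separate, and replicate 2 was the highest of the knockdown libraries. PXN fell by 0.67 (SE 0.18, limma adjusted p = 0.0408), with -0.39 when length and GC trends were removed (limma adjusted p = 0.0981). Exons of opposite-strand genes, PXN-AS1 among them, cover 12.4% of its exon bases.

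PTK2, which encodes focal adhesion kinase, had 2.29, 3.63 and 2.36 FPKM in shTPD52 replicates 1, 2 and 3, against 3.71, 3.75 and 3.72 FPKM in shCtrl. Each knockdown library was below the controls, replicate 2 by a narrow margin. Its log2 fold change (-0.40, SE 0.16, limma adjusted p = 0.108) did not pass. It was -0.58 without shTPD52 replicate 2 (limma adjusted p = 0.00283) and -0.12 with length and GC trends removed (limma adjusted p = 0.352). BCAR1, the scaffold p130Cas, was the most abundant gene of this class, with 8.48, 8.52 and 7.86 FPKM in shTPD52 and 8.86, 8.83 and 9.20 FPKM in shCtrl. Its groups did not overlap, yet its log2 fold change (-0.11, SE 0.082; limma adjusted p = 0.355) was small. With the length and GC trend removed BCAR1 was called higher, at 0.24 (SE 0.059, limma adjusted p = 0.0328). DOCK1, an activator of RAC1 downstream of BCAR1, had 2.02 ± 0.585 FPKM in shTPD52 and 2.47 ± 0.293 FPKM in shCtrl (SD, n = 3 each) and did not pass (limma adjusted p = 0.323).

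Of the non-muscle myosin II heavy chains, MYH9 (ENSG00000100345, GRCh38 chromosome 22, 36281277 to 36388067, minus strand) fell and MYH10 did not pass. MYH9 had 48.7, 57.6 and 41.6 FPKM in shTPD52 replicates 1, 2 and 3, against 69.3, 70.1 and 72.1 FPKM in shCtrl. No knockdown library reached a control. MYH9 fell by 0.52 (SE 0.12, limma adjusted p = 0.0250), with -0.22 when length and GC trends were removed (limma adjusted p = 0.0919). MYH10 had 17.9, 27.1 and 15.9 FPKM in shTPD52 and 24.5, 28.7 and 26.8 FPKM in shCtrl, a log2 change of -0.42 (SE 0.18, limma adjusted p = 0.131). The 2 genes have lengths of 8909 and 9009 bp, and the ratio of MYH9 to MYH10 was 2.72, 2.13 and 2.61 in shTPD52, against 2.83, 2.44 and 2.69 in shCtrl. That ratio overlapped between the groups (log2 difference -0.099, exact permutation p = 0.6, two-sided), so a difference between the 2 myosins in their response was not shown.

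**Figure D2:**
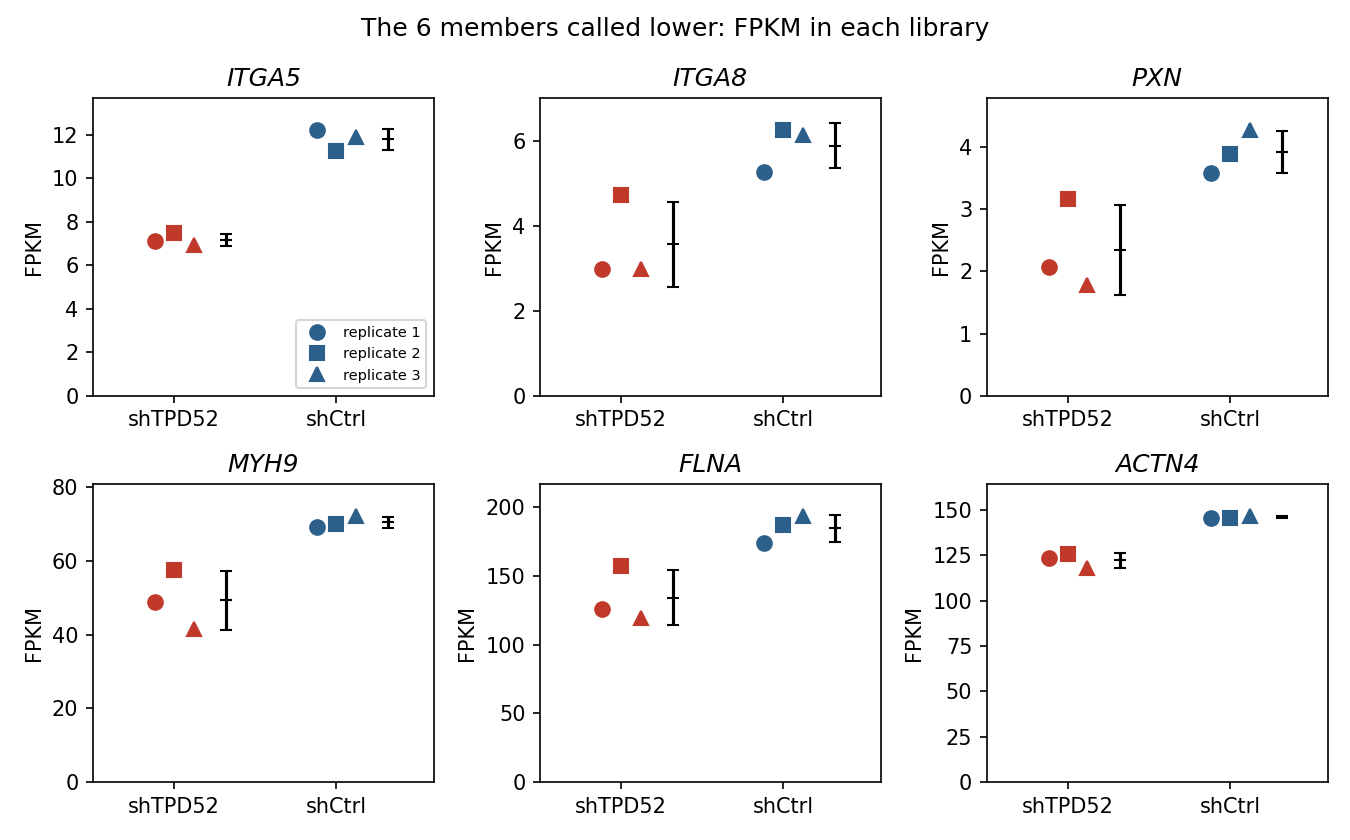
FPKM of the 6 adhesion genes called lower, 1 panel each with an axis from 0, in the 3 shTPD52 (red) and 3 shCtrl (blue) libraries; symbols give the replicate number and black bars the mean and SD. In every panel all shTPD52 points lie below all shCtrl points, and in the panels of ITGA8, PXN, MYH9 and FLNA the value of shTPD52 replicate 2 stands clear of its companions.

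Ratios within a library do not depend on scaling between libraries, although a trend with gene length can enter them. In all, 11 were computed, chosen after the values were seen. The smallest exact permutation p for 3 against 3 libraries is 0.1, so none could pass, and adjusted over the 11 it was 0.183. ITGA5 to ITGA7 was 0.103, 0.105 and 0.103 in shTPD52, against 0.161, 0.164 and 0.151 in shCtrl (log2 difference -0.61), and here shTPD52 replicate 2 matched its companions. PXN to VCL was 0.178, 0.186 and 0.167 in shTPD52, against 0.238, 0.236 and 0.270 in shCtrl (log2 difference -0.49). The ratio of ITGA5 to ITGB1 was 0.350, 0.249 and 0.385 in shTPD52, against 0.464, 0.389 and 0.453 in shCtrl, and shTPD52 replicate 2 was the lowest of all. In these 3 ratios the groups did not overlap. Ratios of ITGAV to ITGB1, TNS3 to TNS1 and ACTN4 to ACTN1 overlapped (exact permutation p = 0.6, 0.6 and 0.7).

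The place of shTPD52 replicate 2 divided the members. In 19 of the 26 tested genes (73.1%) shTPD52 replicates 1 and 3 were both below every control, against 46.0% of all tested genes. In 10 of these 19 replicate 2 was within or above the controls, among them ITGAV, ITGB1, VCL, TNS1, TNS3 and MYH10. That makes 38.5% of the tested members, where the same pattern held for 17.8% of all tested genes, 27.2% of those of 6 to 10 kb and 36.3% of those of 10 kb and over. In the other 9 all 3 knockdown libraries were lower, which is 34.6% of the tested members against 28.3% of all tested genes. Those 9 were the 6 that passed together with TLN1, PTK2 and BCAR1. In no tested member were all 3 higher, against 13.8% of all tested genes (42.0% were separate in either direction). Unlike the 38.5%, the 73.1% and the 34.6% have no share by length class beside them, and 25 of the 26 tested members exceed 6 kb. Whether they differ from genes of like length was not tested. The median member deviated from the shCtrl mean by -0.35, -0.036 and -0.54 (log2) in shTPD52 replicates 1, 2 and 3.

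**Figure D3:**
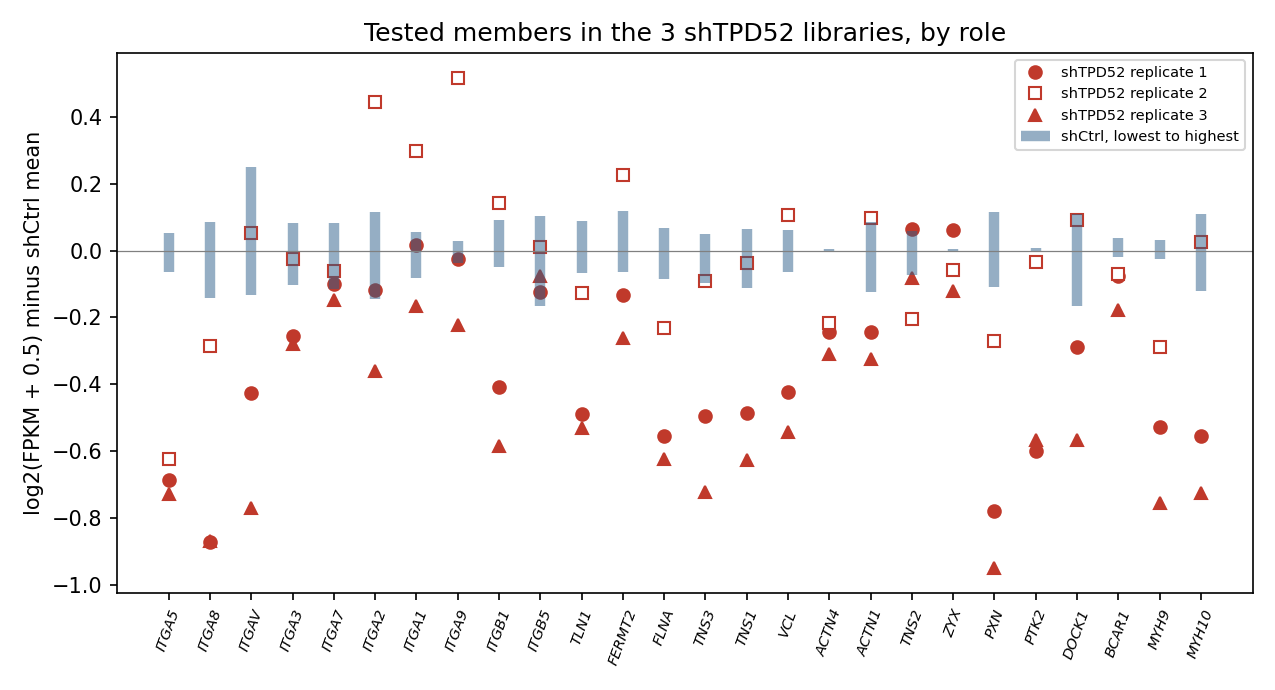
Difference of log2(FPKM + 0.5) from the shCtrl mean for each of the 26 tested members, ordered by role, in shTPD52 replicates 1 (filled circle), 2 (open square) and 3 (triangle); blue bars span the lowest to highest shCtrl library. Replicate 2 lies with its companions for ITGA5 and ACTN4 and above the shCtrl bar for ITGA1, ITGA2, ITGA9, ITGB1, VCL, FERMT2 and ACTN1.

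Without shTPD52 replicate 2, limma called 16 of the 26 lower and none higher, and the median of the members was -0.46. The background moved as well: 32.9% of all tested genes were then lower and 12.6% higher, 45.6% in either direction. The 10 added to the 6 were ITGAV, ITGB1, TLN1, VCL, TNS1, TNS3, ACTN1, PTK2, DOCK1 and MYH10. Leaving out another library ended most calls, while the log2 fold changes of the 6 kept their sign. Over the 6 exclusions they ran from -0.71 to -0.65 for ITGA5, -0.87 to -0.58 for ITGA8, -0.86 to -0.52 for PXN, -0.64 to -0.41 for MYH9, -0.59 to -0.39 for FLNA and -0.28 to -0.23 for ACTN4. With replicate 1 of either group or replicate 2 of shCtrl omitted, ITGA5 was the 1 member that limma called lower, and without shTPD52 replicate 3 it called ITGA5 and MYH9 (limma adjusted p = 0.0193 and 0.0473). Without shCtrl replicate 3 limma called 0, with 7 at an unadjusted p under 0.05 and a limma adjusted p of 0.0561 for ITGA5.

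**Figure D4:**
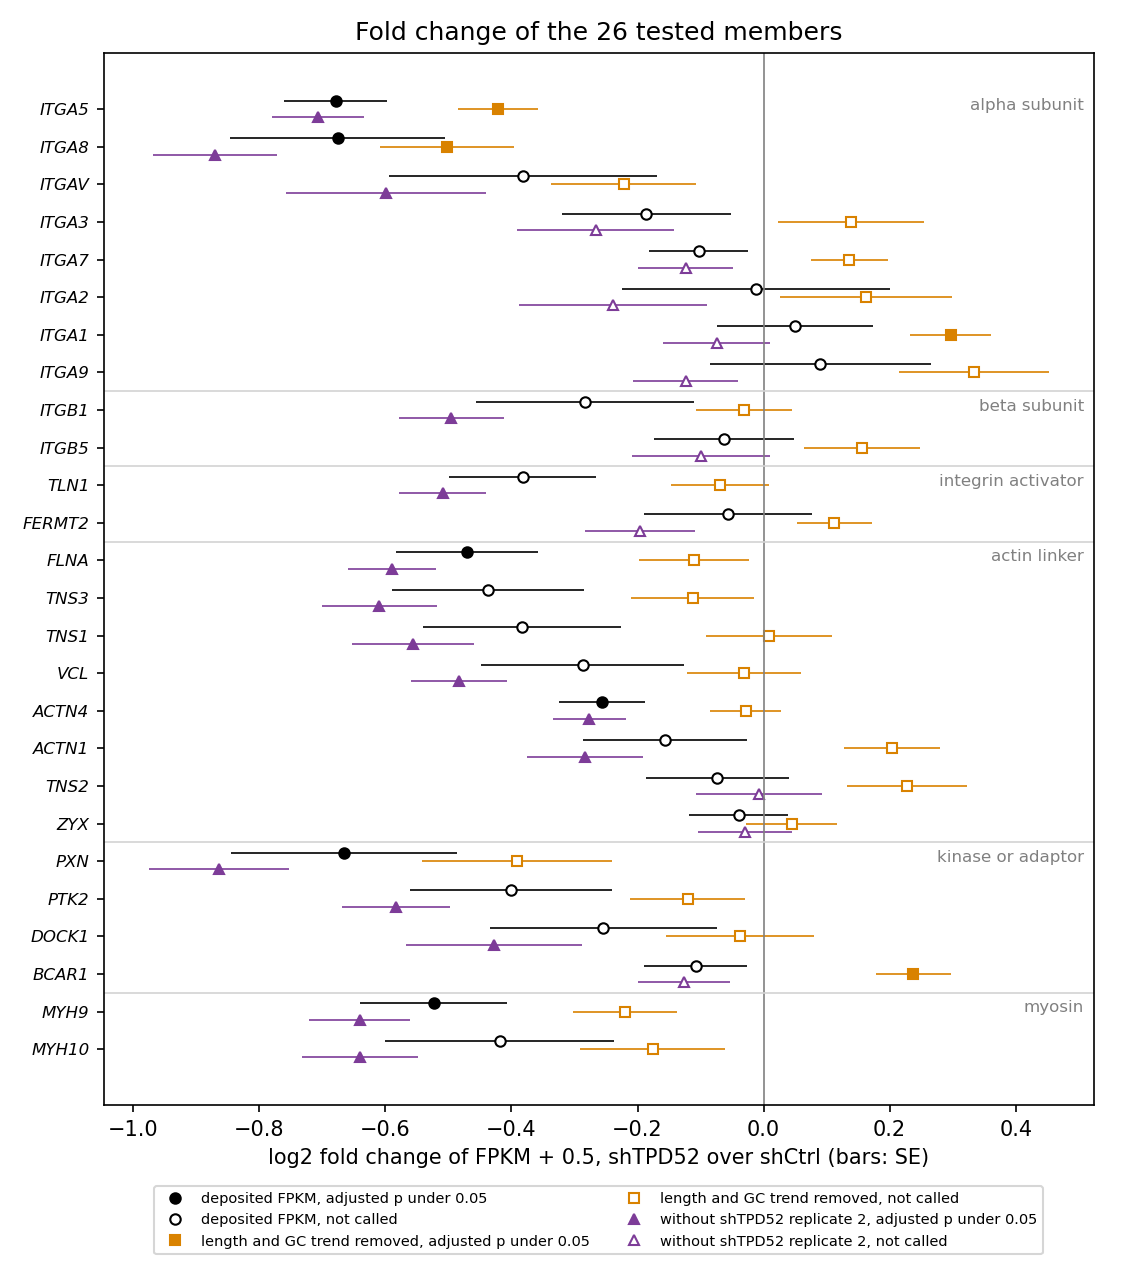
Log2 fold change (shTPD52 over shCtrl, bars SE) of the 26 tested members, grouped by role: black circles from the deposited FPKM, orange squares with each library's length and GC trend removed, purple triangles without shTPD52 replicate 2; filled symbols have an adjusted p under 0.05. Black and purple symbols lie mostly left of 0, with -0.27 and -0.46 as medians, while the orange ones spread around 0 with a median of -0.030 and keep only ITGA5 and ITGA8 as calls on the left.

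Gene length moved with the outcome. The tested members are long genes, with a median of 8.69 kb against 4.596 kb for all tested genes, and 25 of the 26 exceed 6 kb, as 35.2% of all tested genes do. Over all tested genes the median log2 fold change was 0.087 under 2 kb, -0.0067 at 2 to 4 kb, -0.12 at 4 to 6 kb, -0.21 at 6 to 10 kb and -0.28 at 10 kb and over. Genes called lower made up 6.22%, 8.35%, 14.4%, 17.8% and 18.6% of those 5 classes, and genes called higher 11.1%, 8.55%, 4.20%, 2.03% and 0.687%. Among the members, the 18 of 6 to 10 kb had a median of -0.26 and the 7 of 10 kb and over a median of -0.38. The slope lay in 2 libraries: in genes of 10 kb and over the median deviation from the controls was -0.33 in shTPD52 replicate 1 and -0.47 in replicate 3, but -0.049 in replicate 2 beside -0.056 to 0.043 in the shCtrl libraries. The part of length in the differences between the groups was not tested.

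With each library's trend on length and GC content removed, the median of the members was -0.030, beside 0.0030 for all 12707 genes fitted. Calls were then 2 lower (ITGA5 and ITGA8) and 2 higher (ITGA1 and BCAR1), where 10.5% of all genes were lower and 10.6% higher, 21.1% together. Median-ratio scaling, under which the median of all genes is 0.00054 in place of -0.11, left 5 members lower, all of the 6 but ACTN4, beside 8.12% of all genes lower and 8.47% higher, 16.6% together. Applying the length and GC correction without shTPD52 replicate 2, a combination chosen after the data were seen, gave 7 lower and 4 higher, beside 20.3% and 20.2% of all genes, 40.5% together.

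**Figure D5:**
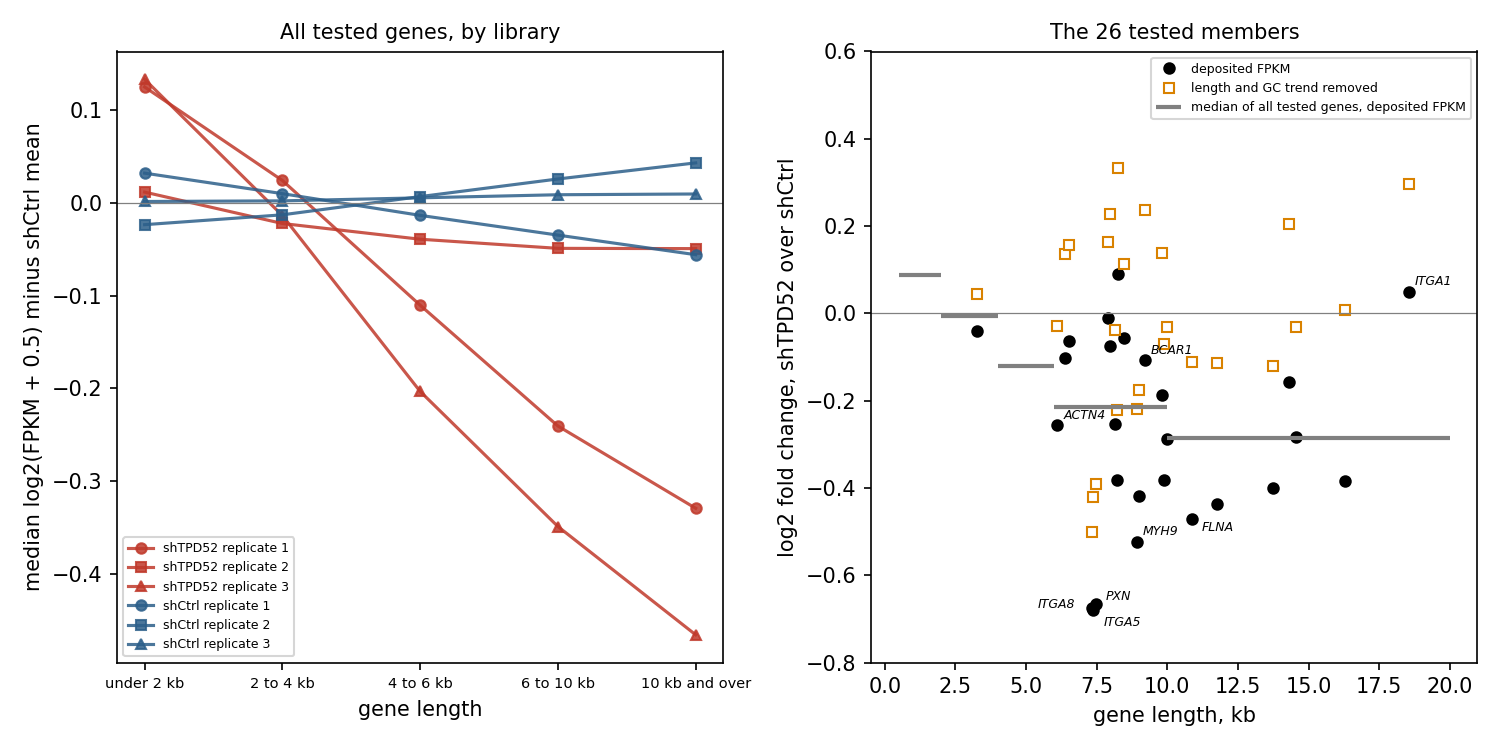
Left, median difference of log2(FPKM + 0.5) from the shCtrl mean over all tested genes in 5 classes of gene length, 1 line per library; shTPD52 replicates 1 and 3 slope down to -0.33 and -0.47 in the longest class while replicate 2 stays near the controls. Right, log2 fold change against gene length for the 26 tested members from deposited FPKM (black) and with the length and GC trend removed (orange), with the median of all tested genes per class as grey lines; ITGA5, ITGA8 and PXN lie furthest below the line for their length.

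The 12 members under the filter were described by level alone, since the filter kept out low genes. For 8 of them the groups overlapped. ITGA11, a collagen receptor of fibroblasts, had 0.489, 0.648 and 0.443 FPKM in shTPD52 and 0.819, 1.02 and 1.02 FPKM in shCtrl, and FLNC, the filamin of striated muscle, had 0.362, 0.492 and 0.329 FPKM in shTPD52 and 0.602, 0.728 and 0.765 FPKM in shCtrl. Every shTPD52 library was lower for both. ITGA6, a laminin receptor, had 0.882, 0.985 and 0.842 FPKM in shTPD52 and 0.660, 0.627 and 0.702 FPKM in shCtrl. PARVA, alpha-parvin, had 0.497, 0.662 and 0.597 FPKM in shTPD52 and 0.365, 0.485 and 0.391 FPKM in shCtrl, so every shTPD52 library was higher for both. In a fit without a filter none of the 4 passed (limma adjusted p = 0.154 for ITGA11, 0.196 for FLNC, 0.328 for ITGA6 and 0.404 for PARVA).

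The other low members were ITGA10, ITGB3, ITGB4, ITGB6, ITGB7, ITGB8, TLN2 and ILK. ITGB4, the laminin receptor chain of epithelia, had 0.679 ± 0.0486 FPKM in shTPD52 and 0.729 ± 0.126 FPKM in shCtrl (SD, n = 3 each). ITGB6 was listed at 0 in all shTPD52 libraries and in 2 of 3 shCtrl libraries, where a floor of 3 reads stands for 0.0136 to 0.0177 FPKM. ILK, the pseudokinase that binds beta tails and parvin, was at 0.226 ± 0.0455 FPKM in shTPD52 and 0.369 ± 0.154 FPKM in shCtrl (SD, n = 3 each), on 23 to 55 reads. Exons of opposite-strand genes, TAF10 among them, cover 78.5% of the exon bases of ILK, so its level is uncertain. The same holds for ITGB3 (51.6%, a same-strand gene) and ITGB7 (42.1%, ZNF740).

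Around the members, a list of 82 further adhesion genes was read in the same fit. Of 54 tested, 10 fell, 1 rose and 43 did not pass, and the median log2 fold change was -0.18. Of all tested genes, 12.7% were called lower and 5.63% higher, with a median of -0.11. At 6 to 10 kb, the class of this list's median length (7.18 kb), those shares were 17.8% and 2.03%, with a median of -0.21. SYNM, the intermediate filament protein synemin, fell by 0.69 (limma adjusted p = 0.0111). PLEC, which encodes the linker plectin, fell by 0.75 (limma adjusted p = 0.0136). RAPGEF1, a RAP1 exchange factor that binds CRK, fell by 0.64 (limma adjusted p = 0.0157), and CSK, the kinase that inhibits SRC, by 0.36 (limma adjusted p = 0.0212). CD9, a tetraspanin that associates with integrins, rose by 0.67 (limma adjusted p = 0.0180), at 1.93 ± 0.221 FPKM in shTPD52 and 1.02 ± 0.0461 FPKM in shCtrl (SD, n = 3 each). With the length and GC correction 7 were lower and 8 higher (10.5% and 10.6% of all genes), with SYNM, RAPGEF1 and CSK still lower, CD9 still higher, and PLEC not called (limma adjusted p = 0.0554). Without shTPD52 replicate 2, 26 of the 54 were lower and 4 higher, where 32.9% of all genes were lower and 12.6% higher. CSK lost its call with median-ratio scaling (limma adjusted p = 0.0868).

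Of 40 tested genes of actin, of SRF and YAP control and their targets, 8 fell, 1 rose and 31 did not pass, with a median of -0.19. Of all genes, 12.7% were called lower and 5.63% higher, with a median of -0.11. CNN2, the actin-binding calponin 2, fell by 0.62 (limma adjusted p = 0.00905), at 6.65 ± 0.326 FPKM in shTPD52 and 10.4 ± 0.402 FPKM in shCtrl (SD, n = 3 each). FHL1, a LIM-domain protein, fell by 0.71 (limma adjusted p = 0.00924), and LIMK2, a kinase of cofilin, by 0.53 (limma adjusted p = 0.0179). LATS2, a kinase that inhibits YAP and itself a YAP target, fell by 0.92 (limma adjusted p = 0.0294). TAGLN2, transgelin 2, rose by 0.36 (limma adjusted p = 0.0180). These 5 kept their calls with the length and GC correction, where 6 of the list were lower and 6 higher (10.5% and 10.6% of all genes). Without shTPD52 replicate 2, 19 of the 40 were lower and 7 higher, beside the same 32.9% and 12.6% of all genes. Leaving out any library other than that one left 0 to 3 calls among the other adhesion genes and 0 to 4 here. No test of either list was run. The lists hold long genes, with median lengths of 7.18 kb for the other adhesion genes and 5.37 kb here. Of all genes in the classes of those lengths, 17.8% (6 to 10 kb) and 14.4% (4 to 6 kb) were called lower with the deposited FPKM. Those called higher were 2.03% and 4.20%.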

How the data were processed

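The deposited table holds FPKM computed by the authors, 1 column per library. HISAT2 2.2.1, featureCounts 2.0.3 and GRCh38 (hg38) are named in the submitters' processing notes without roles, and the sources used here do not give the annotation release, strand setting or filters. Libraries were paired-end from TRIzol-extracted total RNA, per the labels' protocols. Identifiers were matched to symbols for 33668 of 34869 genes. Reads were worked back from the deposited FPKM using GENCODE release 29 exon lengths, or for 28 of the 38 members a searched length, that made values whole within 0.02 reads; the search brings wholeness about, so it is no check. Odd numbers were 28.2% to 31.2% of counts from 1 to 20, so reads may be counted mates. Floors of 3 reads cover counting error only.

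Genes whose mean reached 1 FPKM were fitted as log2(FPKM + 0.5), a scale that understates changes of low genes, with limma 3.58.1 in R 4.3.3 (intensity trend, two-sided, Benjamini-Hochberg over every gene fitted, threshold 0.05). Fold changes are shTPD52 over shCtrl. Length and GC trends were removed per library by loess (span 0.3), available for 99.4% of the genes. Other alternatives were pseudocounts 0.1 and 1, a filter at 5 FPKM or none, quantile normalization, median-ratio scaling, rescaling to FPKM outside mitochondrial genes, no trend, a replicate block, limma-voom on recovered reads, and leaving out each library. The scripts were tested on simulated data. Members and lists were chosen with earlier results of these data known. By rule, values per library are given for members that passed, that lead their role or whose groups are separate; those of ITGAV, ITGA1, ITGA2, VCL, FERMT2 and MYH10 were added after values were seen. By the same rule up to 4 passing genes per direction are named from each list. One further marker list is not reported here.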

Additional observations from a re-analysis of the deposited data

How the results depend on the processing

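The number of members called lower, 6 with the deposited FPKM, stayed between 5 and 8 with other pseudocounts, quantile normalization, median-ratio scaling, rescaling to FPKM outside mitochondrial genes, no trend, voom and the replicate block. A filter at 5 FPKM fitted only 16 of the 26, without ITGA8 and PXN, and called 5. The number was 1 (ITGA5) with no filter and 2 with the length and GC correction, which also called 2 higher and moved the members' median to -0.030. Leaving out 1 library gave 0 to 16 lower, none higher and a median from -0.46 to -0.15. All genes called were 2341, 531 with no filter and from 87 (without shCtrl replicate 3) to 5825 (without shTPD52 replicate 2) with 1 library left out. Calls in the list of other adhesion genes were 11, 2 with no filter and 0 to 30 without 1 library; in the actin, SRF and YAP list they were 9, 3 with no filter, 14 with voom and 0 to 26 without 1 library. The length and GC correction without shTPD52 replicate 2, an alternative chosen after seeing the data, gave 5146 calls, 7 members lower and 4 higher, a median of -0.098 and 21 calls in each list. The causes were not tested.

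Signs turned for genes that did not pass. With median-ratio scaling these were ITGA2 (0.076), ITGA7 (0.020), ITGB5 (0.046), ZYX (0.081), FERMT2 (0.062), TNS2 (0.032) and BCAR1 (0.0093), and with quantile normalization ITGA2 (0.11), ITGB5 (0.085), ZYX (0.020), FERMT2 (0.056), TNS2 (0.064) and BCAR1 (0.015). Rescaling outside mitochondrial genes turned ITGA1 (-0.011). The length and GC correction turned ITGA2 (0.16), ITGA3 (0.14), ITGA7 (0.14), ITGB5 (0.16), ACTN1 (0.20), ZYX (0.044), FERMT2 (0.11), TNS1 (0.0086), TNS2 (0.23) and BCAR1 (0.24). The same correction without shTPD52 replicate 2 turned ITGA2 (0.045), ITGA3 (0.10), ITGA7 (0.13), ITGB5 (0.16), ACTN1 (0.15), FERMT2 (0.094), TNS2 (0.31) and BCAR1 (0.23). Leaving out 1 library turned some as well, with values from -0.24 to 0.16 for ITGA2, -0.20 to 0.046 for FERMT2, -0.090 to 0.0011 for ZYX, -0.075 to 0.16 for ITGA1 and -0.12 to 0.25 for ITGA9.

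Same-numbered libraries deviated together only weakly (correlations 0.045, 0.25 and 0.022), so the numbers were not taken as pairs; with the replicate block 8 members and 3064 genes were called, adding TLN1, TNS3 and MYH10 and losing ACTN4 (limma adjusted p = 0.0614). Depth limits the low members, several on under 30 reads.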
